A study of Homo sapiens with 12 samples.

Results

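The chaperone genes described here are 10 of the 6566 genes with a coding open reading frame (ORF) in a deposited ribosome profiling table of human HEK293 cells. They are the HSP70 genes HSPA8 and HSPA9, the HSP110 genes HSPA4 and HSPH1, the HSP90 genes HSP90AA1 and HSP90AB1, the J-protein genes DNAJA1 and DNAJB1, and the mitochondrial chaperonin pair HSPD1 and HSPE1. They were chosen by name, with earlier results of these data known. The footprints of their coding ORFs were summed per gene with each codon counted once.

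Chaperones bind unfolded stretches of protein and let them go in cycles driven by ATP. J proteins bring clients to HSP70 and start its ATP hydrolysis, HSP110 proteins make HSP70 release its nucleotide, and HSP90 takes up partly folded clients such as kinases and steroid receptors. In mitochondria HSPD1 (HSP60) forms a barrel in which proteins fold, and HSPE1 (HSP10) is its lid. Many of these genes are targets of the heat shock factor HSF1, which binds repeated inverted units of the letters GAA and TTC.

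HEK293 is a line derived from human embryonic kidney. Cells in log phase grew in medium with 10% fetal serum, serum-starved cells spent 2 h without serum, and amino acid-starved cells spent 1 h in a salt solution with vitamins and 10% serum. Lysates were made with cycloheximide, which halts elongating ribosomes, and separated on gradients. Footprints of 17 to 34 nt came from the pooled monosome fraction (mRNAs with a single ribosome) or the pooled polysome fraction (mRNAs with several). Each of the 6 groups held 2 libraries, marked A and B in the table. No label says whether the 2 came from separate cultures, so p-values measure the spread between these libraries, which may be technical. Total mRNA was not analysed here, so more mRNA and more ribosomes per mRNA cannot be told apart, and each value is a share of its own fraction.

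The deposited caller listed 21 coding ORFs for these genes, of which 11 were kept after each codon was counted once. On genome build hg38 the kept ORF of HSPA8 ran over chr11:123057734-123061318 (minus strand, 8 exons, 1935 nt), that of HSPA9 over chr5:138556037-138573837 (minus strand, 15 exons, 1887 nt) and that of HSPA4 over chr5:133070425-133104436 (plus strand, 16 exons, 2166 nt). HSPH1 was represented by 804 nt in 6 exons at chr13:31137318-31141202 (minus strand), a fragment of its coding region. The main HSP90AA1 ORF lay at chr14:102081712-102086282 (minus strand, 10 exons, 2103 nt), and a second one of 96 nt brought that gene to 2199 nt. HSP90AB1 had 2163 nt at chr6:44248642-44253598 (plus strand, 11 exons). DNAJA1 had 1131 nt at chr9:33026548-33038903 (plus strand, 8 exons), and DNAJB1 a fragment of 396 nt at chr19:14515940-14516630 (minus strand, 2 exons). HSPD1 had 1794 nt at chr2:197487046-197499851 (minus strand, 12 exons), and HSPE1 its whole coding sequence of 309 nt at chr2:197500437-197503259 (plus strand, 4 exons). HSPE1 alone had an ORF that the caller typed as a complete coding sequence. HSPD1 was typed as a variant and the other 8 genes as truncated, so their starts, several at codons other than ATG, are the caller's.

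Heat shock elements near an annotated start were found for HSPA8, HSP90AA1, HSP90AB1, DNAJA1 and HSPD1, and all stretches found are shown. Whether the elements bear on the changes in starvation was not tested. Sequences are from RefSeq (GRCh38.p14) and are written 5′ to 3′ on the gene's strand, with capitals marking the element: GAANNTTCNNGAA or TTCNNGAANNTTC, read on both strands, overlapping matches joined. The windows searched ran from 250 bases before to 50 after each start, and positions give the first capital relative to the start.
HSPA8 at -230, chr11:123062346-123062374: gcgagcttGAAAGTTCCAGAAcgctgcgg
HSPA8 at -55, chr11:123062171-123062199: cgggccccTTCTGGAAGGTTCtaagatag
HSP90AA1 at -88, chr14:102087112-102087140: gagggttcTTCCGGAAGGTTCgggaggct
HSP90AB1 at -165, chr6:44247770-44247798: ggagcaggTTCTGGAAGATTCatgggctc
HSP90AB1 at -112, chr6:44247823-44247851: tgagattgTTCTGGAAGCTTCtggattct
DNAJA1 at 3, chr9:33025268-33025296: gccgggcgGAACTTTCCAGAAcgctcggt
HSPD1 at -245, chr2:197500062-197500090: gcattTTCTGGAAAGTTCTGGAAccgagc

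The element with 3 units was found for 5 of the 10 chaperone genes and for 0.608% of the 27305 symbols with a window (166 symbols). A shorter element with 2 units, GAANNTTC or TTCNNGAA, which is contained in the longer one, was found for 7 of the 10 genes and for 16.2% of all symbols. The additional genes were HSPA9 and DNAJB1, and HSPA4, HSPH1 and HSPE1 had no match of either kind in these windows. For HSPD1, HSP90AA1 and HSP90AB1 the 3-unit element was near 1 annotated start and absent from the windows of their other starts. By window, 5 of the 16 windows of the 10 genes held it, against 0.49% of all 35116 windows. HSPD1 and HSPE1 are head to head with 105 nt between their gene starts. The HSPD1 stretch shown lies inside the HSPD1 gene, 184 nt from its gene start and 289 nt from the start of HSPE1. A match is a string of letters, and binding was not measured.

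Libraries held 119947 to 346200 coding footprints in monosomes and 1493881 to 5313462 in polysomes. Levels are given as CPM, the count of footprints scaled to 1000000 coding footprints of the library. The deposited table carried footprints of the neurofilament genes NEFM and NEFL and of VIM, which HEK293 cells are known to express. KRT8 had 20 footprints in all, and KRT18 and PAX2 had no coding ORF under their names. Of the markers of other cell types, COL1A1 had 52 footprints in all, and PTPRC, HBB, ALB, MYH7, PECAM1 and UMOD had no coding ORF under their names. The letter of a library moved with the values: in polysomes the B library held 1.78 to 5.90 times the A level for HSPA8, HSPA4, HSPA9, HSPH1, HSPD1, DNAJA1 and both HSP90 genes, but 0.381 to 0.640 times for HSPE1. Over all 4877 genes tested, B minus A differences correlated at 0.768 to 0.866 between the polysome groups. Pairs with a monosome group gave 0.161 to 0.424. Tests are therefore given without and with the letter as a replicate block. The block takes 1 letter effect per gene for all groups, although monosomes shared the letter differences less. What the letters stand for beyond the library is not given in the sources used here.

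HSPE1 had the highest level per kb of kept ORF in all 12 libraries, with a mean of 2440 CPM per kb in monosomes and 5984 in polysomes. This level includes many footprints in the last 24 nt of its ORF, 73.1 of 134.9 in serum-starved monosome library B. The genes were not ranked without them, so the first rank is for the whole ORF. HSP90AA1 ranked second in 11 libraries, with 608.5 and 679.5 CPM per kb, and HSPD1 ranked between 3 and 4 throughout, with 417.7 and 409.4. HSPA8, DNAJA1, HSP90AB1 and HSPA9 were next in an order that differed between fractions. Their means were 398.1 CPM per kb in monosomes and 178.2 in polysomes for HSPA8, 114.4 and 215.7 for DNAJA1, 216.1 and 156.9 for HSP90AB1, and 199.2 and 132.3 for HSPA9. HSPA4, HSPH1 and DNAJB1 were lowest, and DNAJB1 was last in 8 of 12 libraries with 26.0 and 58.0 CPM per kb. In each polysome group the ranges of neighbours in this order overlapped in 8 of 9 pairs, and only the gap between HSPE1 and the next gene was free of overlap. The plot of levels by library shows this spread.

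**Figure D1:**
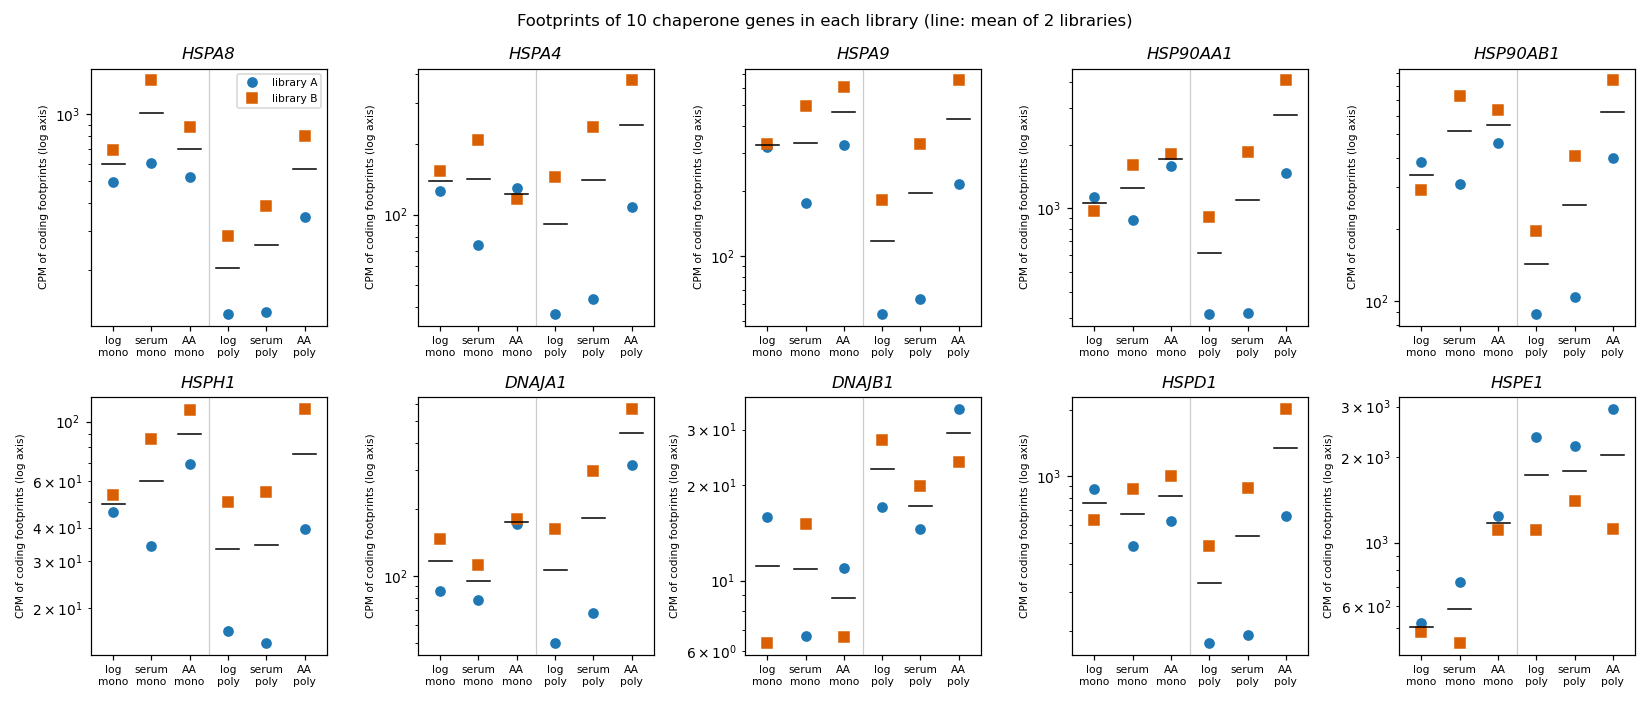
CPM of coding footprints (log axis, scaled separately for each gene) of the 10 chaperone genes in the 12 libraries, with circles for library A, squares for library B and a line at the mean of the 2. In polysomes B lies above A for most genes and below A for HSPE1. Within each letter the amino acid-starved library is the highest polysome library for every gene but DNAJB1 and HSPE1.

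Together the chaperone genes took a larger share of polysome footprints in amino acid-starved cells. Their share of coding footprints was 0.339% ± 0.0226 (SD, n = 2) in log phase, 0.450% ± 0.194 (SD, n = 2) after serum starvation and 0.856% ± 0.285 (SD, n = 2) after amino acid starvation. Without HSPE1 the log phase, serum-starved and amino acid-starved shares were 0.166% ± 0.111, 0.271% ± 0.250 and 0.653% ± 0.414 (SD, n = 2). The 2 starved groups then overlapped, with serum-starved B at 0.448% and amino acid-starved A at 0.360%. In monosomes the same shares with HSPE1 were 0.389% ± 0.0169, 0.469% ± 0.186 and 0.581% ± 0.0916 (SD, n = 2).

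Amino acid starvation was first compared with log phase in polysomes, gene by gene. With the block, 5 of the 10 chaperone genes rose: DNAJA1, HSP90AB1, HSP90AA1, HSPD1 and HSPA9, by 1.64 to 1.92 on the log2 scale. In the same edgeR quasi-likelihood fit 9.97% of all 4877 genes passed an adjusted p of 0.05, and 5.21% of all genes passed it upwards. The 10 genes were not chosen blind to these data, so setting their count beside these shares is a description. The median log2 change was 1.41 over the 10 genes and -0.07 over all genes. Without the block none of the 4877 genes passed (0.0%), although 427 had an unadjusted p under 0.05 and DESeq2 called 93, and the smallest adjusted p among the chaperone genes was 0.449. Of the 10 estimates 9 were above 0 with or without the block. Starved and log phase libraries did not overlap for 6 of the 10 genes, the 5 called with the block and HSPA8, and starved libraries lay above log phase without overlap for 21.6% of all genes tested. The calls rested on all 4 polysome libraries compared: leaving out log phase A, starved A or starved B left 0 of the 10 called, and leaving out log phase B left 2. With library sizes in place of TMM scaling, which moved the median of all genes by 0.308, the block fit called 8 of the 10.

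**Figure D2:**
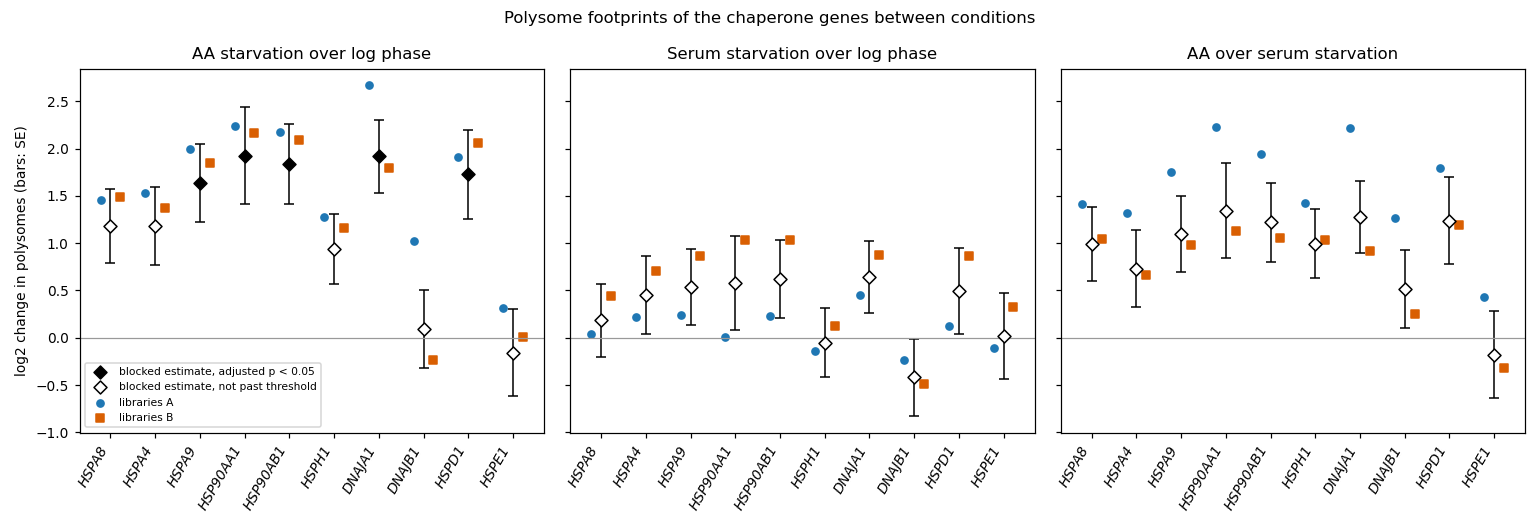
Log2 change in polysomes of each chaperone gene in 3 comparisons, as the edgeR estimate with the replicate block (diamonds, bars of 1 SE, filled where the adjusted p is under 0.05) and as the plain CPM change between the A libraries (circles) and the B libraries (squares). In amino acid starvation over log phase 5 diamonds are filled, and none is in the other 2 panels. The plain CPM changes are not TMM-scaled and can lie to 1 side of the estimate.

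Monosomes were then compared with polysomes over the 3 conditions. HSPA8 was higher in monosomes and HSPE1 lower, and these 2 genes passed both without and with the block. In the fit without the block 38.8% of all genes passed, 17.0% higher in monosomes and 21.8% lower, so 2 of 10 was no larger a share than the background. With the block 54.0% passed, 23.8% higher and 30.1% lower, and of the chaperone genes HSPA8, HSPA9, HSP90AB1 and HSPH1 were higher while HSPE1, DNAJB1 and DNAJA1 were lower. The median of the 10 genes was 0.25 without and 0.41 with the block, against -0.18 and -0.14 for all genes. Without the block the count ran from 1 to 4 when single libraries were left out: it was 1 without B of serum-starved or amino acid-starved monosomes or A of amino acid-starved polysomes, and 4 without B of either starved polysome group. With the block each of those first 3 omissions left 4.

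**Figure D3:**
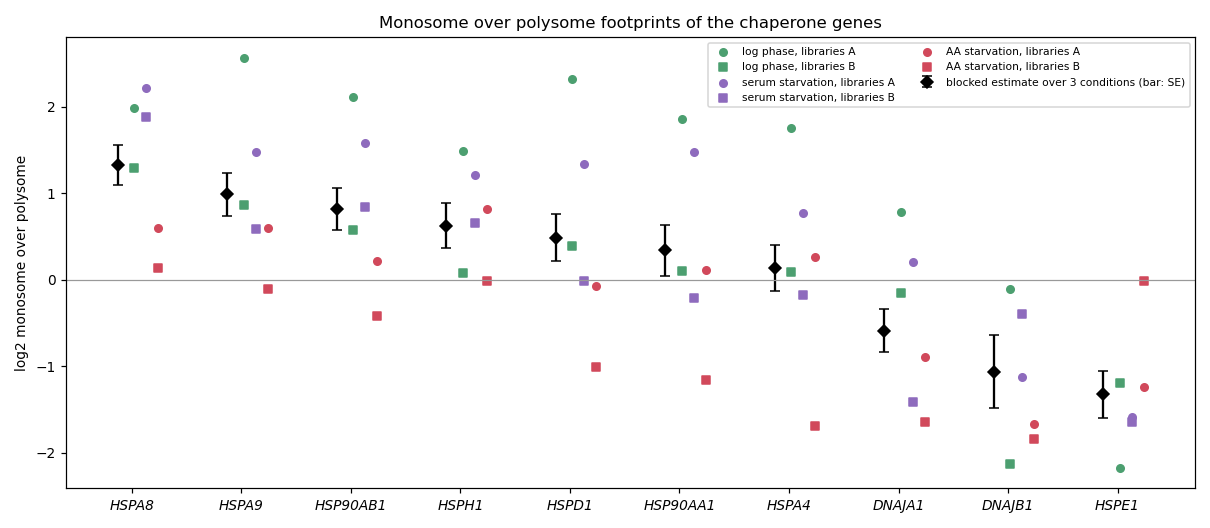
Log2 of monosome over polysome level for each chaperone gene, ordered by the edgeR estimate with the replicate block (diamonds, bars of 1 SE). The coloured points are plain CPM ratios within each condition and letter, and for HSPA8 all 6 lie above 0 while for HSPE1 all 6 lie below 0.

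HSPA8 encodes HSC70, the constitutive cytosolic HSP70. In polysomes it was at 126.5 and 283.4 CPM in log phase A and B, 129.9 and 385.9 CPM after serum starvation, and 346.5 and 796.2 CPM after amino acid starvation. Both amino acid-starved libraries lay above both log phase libraries, and the serum-starved B library lay within the amino acid-starved range. The blocked change in amino acid starvation was 1.18 (SE 0.392, adjusted p = 0.0519), and without the block it was 1.25 (SE 0.596, adjusted p = 0.569). In monosomes HSPA8 was at 498.6 and 693.8 CPM in log phase, 604.4 and 1425 CPM after serum starvation, and 523.6 and 876.9 CPM after amino acid starvation. Monosome libraries were above polysome libraries without overlap in log phase and serum starvation, and the 2 fractions overlapped in amino acid starvation. Over the 3 conditions monosomes exceeded polysomes by 1.30 on the log2 scale (SE 0.346, adjusted p = 0.00920), and by 1.33 with the block (SE 0.230, adjusted p = 2.02e-05). Without the block the call was lost when B of serum-starved or amino acid-starved monosomes was left out (adjusted p = 0.0575 and 0.0558).

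HSPA9 (mortalin) is the HSP70 of the mitochondrial matrix and part of the import motor. Its polysome levels were 54.09 and 181.4 CPM in log phase, 63.81 and 330.5 CPM after serum starvation, and 215.7 and 652.1 CPM after amino acid starvation. Amino acid-starved libraries did not overlap with log phase, and the blocked rise was 1.64 (SE 0.412, adjusted p = 0.0130), against 1.70 (SE 0.713, adjusted p = 0.530) without the block. Monosome levels were 320.2 and 331.0 CPM in log phase, 176.7 and 494.3 CPM after serum starvation, and 326.9 and 606.0 CPM after amino acid starvation. Monosomes lay above polysomes without overlap in log phase alone. Monosomes over polysomes came to 0.98 with the block (SE 0.244, adjusted p = 0.00123) and 0.85 without it (SE 0.409, adjusted p = 0.114).

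HSPA4 and HSPH1 are HSP110 proteins, which act as nucleotide exchange factors of HSP70. HSPA4 was at 37.45 and 145.2 CPM in log phase polysomes, 43.53 and 237.3 CPM after serum starvation, and 108.2 and 376.3 CPM after amino acid starvation. Each B library exceeded the A library of its own and of every other polysome group, so the groups overlapped. The amino acid change was 1.18 with the block (SE 0.415, adjusted p = 0.0640) and 1.24 without it (SE 0.706, adjusted p = 0.609). In monosomes HSPA4 ranged from 74.20 to 209.5 CPM over the 6 libraries, and monosomes over polysomes came to 0.13 with the block (SE 0.265, adjusted p = 0.699) and -0.03 without it (SE 0.420, adjusted p = 0.962).

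HSPH1 rested on fewer footprints, 97.1 in all monosome libraries and 780.1 in all polysome libraries. It was at 16.32 and 50.06 CPM in log phase polysomes, 14.76 and 54.40 CPM after serum starvation, and 39.56 and 111.4 CPM after amino acid starvation. Starved and log phase groups overlapped, and the amino acid change was 0.94 with the block (SE 0.367, adjusted p = 0.0937) and 1.00 without it (SE 0.616, adjusted p = 0.628). Its monosome levels ran from 34.18 to 110.6 CPM. Monosomes exceeded polysomes by 0.62 with the block (SE 0.260, adjusted p = 0.0433), and the value without it was 0.60 (SE 0.382, adjusted p = 0.225). The blocked call was kept in 8 of 16 alternatives, with values from 0.34 to 0.84. It was lost without A of any 1 of the 6 groups and without B of serum-starved or amino acid-starved monosomes.

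HSP90AA1 and HSP90AB1 encode the inducible and the constitutive cytosolic HSP90. HSP90AA1 had 314.3 and 909.7 CPM in log phase polysomes, 316.6 and 1867 CPM after serum starvation, and 1481 and 4076 CPM after amino acid starvation. Both amino acid-starved libraries were above both log phase libraries, while serum-starved B lay within the amino acid-starved range. The amino acid rise was 1.92 with the block (SE 0.510, adjusted p = 0.0165) and 1.98 without it (SE 0.721, adjusted p = 0.501). HSP90AA1 monosome levels were 1139 and 973.4 CPM in log phase, 879.6 and 1614 CPM after serum starvation, and 1600 and 1822 CPM after amino acid starvation. Its monosome over polysome value was 0.34 with the block (SE 0.295, adjusted p = 0.338) and 0.17 without it (SE 0.403, adjusted p = 0.772). The plain ratio was above 0 in all 3 A pairs and below 0 in 2 of the 3 B pairs.

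HSP90AB1 was at 88.45 and 197.7 CPM in log phase polysomes, 103.9 and 404.4 CPM after serum starvation, and 398.7 and 842.8 CPM after amino acid starvation. The amino acid-starved pair lay above the log phase pair, and the rise was 1.84 with the block (SE 0.422, adjusted p = 0.00801) and 1.89 without it (SE 0.610, adjusted p = 0.457). In monosomes HSP90AB1 was at 383.1 and 293.8 CPM in log phase, 309.3 and 724.2 CPM after serum starvation, and 462.3 and 631.6 CPM after amino acid starvation. Monosomes exceeded polysomes by 0.82 with the block (SE 0.245, adjusted p = 0.00612), and the value without it was 0.74 (SE 0.346, adjusted p = 0.101). The blocked call was lost without log phase monosome A (0.45, adjusted p = 0.144) and without serum-starved monosome B (0.61, adjusted p = 0.0984). Per kb, HSP90AA1 was 2.19 to 4.76 times HSP90AB1 in every library. RefSeq lists 5 pseudogenes under HSP90AA1 symbols and 6 under HSP90AB1 symbols, and how reads shared with such copies were assigned is not given in the sources used here.

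DNAJA1 and DNAJB1 are J proteins that hand clients to cytosolic HSP70, and DNAJB1 is the partner used in disaggregation. DNAJA1 polysome levels were 49.93 and 163.1 CPM in log phase, 68.20 and 298.9 CPM after serum starvation, and 317.8 and 565.8 CPM after amino acid starvation. The amino acid-starved libraries were above every log phase and serum-starved library. DNAJA1 had the smallest adjusted p of the 10 genes in this comparison, with a rise of 1.92 with the block (SE 0.390, adjusted p = 0.00366) and 1.87 without it (SE 0.595, adjusted p = 0.449). Its monosome levels were 86.09 and 147.0 CPM in log phase, 78.37 and 112.3 CPM after serum starvation, and 171.3 and 181.1 CPM after amino acid starvation. Both amino acid-starved monosome libraries were below both amino acid-starved polysome libraries, while the fractions overlapped in log phase and serum starvation. Monosomes over polysomes came to -0.59 with the block (SE 0.246, adjusted p = 0.0436) and -0.65 without it (SE 0.350, adjusted p = 0.155). The blocked call was kept in 6 of 16 alternatives, with values from -0.89 to -0.31. It was lost with RLE or library-size scaling, with DESeq2, and without any 1 of the 3 monosome B libraries, the 3 polysome B libraries or amino acid-starved polysome A.

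DNAJB1 was the scarcest of the 10, with 15.5 footprints in all monosome libraries together and 0.8 to 4.6 in each. Its polysome levels were 17.11 and 27.85 CPM in log phase, 14.51 and 19.89 CPM after serum starvation, and 34.81 and 23.75 CPM after amino acid starvation. The groups overlapped, and the amino acid-starved level was above log phase between the A libraries and below it between the B libraries. The estimate was 0.09 with the block (SE 0.410, adjusted p = 0.918) and 0.11 without it (SE 0.576, adjusted p = 0.962). Monosome levels were 6.36 to 15.9 CPM, and monosomes fell below polysomes by 1.06 on the log2 scale with the block (SE 0.419, adjusted p = 0.0334). Without it the value was -1.09 (SE 0.447, adjusted p = 0.0661). The blocked call was kept in 8 of 15 alternatives, and was lost with RLE scaling, with DESeq2 and without any 1 of the 3 polysome B libraries or B of log phase or amino acid-starved monosomes.

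HSPD1 polysome levels were 175.7 and 484.2 CPM in log phase, 190.9 and 881.9 CPM after serum starvation, and 662.1 and 2012 CPM after amino acid starvation. Amino acid-starved libraries did not overlap with log phase, and the rise was 1.73 with the block (SE 0.468, adjusted p = 0.0181) and 1.81 without it (SE 0.686, adjusted p = 0.505). HSPD1 monosome levels were 876.1 and 634.3 CPM in log phase, 481.9 and 873.7 CPM after serum starvation, and 628.9 and 1001 CPM after amino acid starvation. Monosomes over polysomes came to 0.48 with the block (SE 0.272, adjusted p = 0.133) and 0.34 without it (SE 0.387, adjusted p = 0.513).

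HSPE1, its partner, had another pattern. HSPE1 polysome levels were 2353 and 1110 CPM in log phase, 2180 and 1394 CPM after serum starvation, and 2937 and 1120 CPM after amino acid starvation. In each group A was above B, and the 3 groups overlapped. The amino acid estimate was -0.16 with the block (SE 0.456, adjusted p = 0.869) and -0.18 without it (SE 0.685, adjusted p = 0.949). In monosomes HSPE1 was at 521.7 and 486.4 CPM in log phase, 726.2 and 444.3 CPM after serum starvation, and 1240 and 1106 CPM after amino acid starvation. Monosomes fell below polysomes by 1.48 on the log2 scale (SE 0.407, adjusted p = 0.0110), and by 1.33 with the block (SE 0.275, adjusted p = 0.000183). Without the block the call was lost when amino acid-starved polysome A was left out (-1.07, adjusted p = 0.0519). RefSeq lists 28 pseudogenes under HSPE1 symbols and 22 under HSPD1 symbols, and the treatment of shared reads is as for HSP90.

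Per kb of ORF, HSPE1 exceeded HSPD1 2.95 to 11.4 times in monosomes and 3.23 to 77.8 times in polysomes. The HSPE1 levels include its last codons, described below, which held 38.3% to 69.0% of its footprints by library. No ratio was taken without them. The largest ratios were in the A polysome libraries, at 77.8 in log phase, 66.3 after serum starvation and 25.8 after amino acid starvation, and the B libraries gave 13.3, 9.18 and 3.23. The log2 ratio was 2.47 ± 0.77 (SD, n = 6) in monosomes and 4.27 ± 1.76 (SD, n = 6) in polysomes. The difference of -1.80 did not pass an exact two-sided permutation of fractions within conditions (p = 0.0741, adjusted over 3 measures 0.111). On the log2 scale the difference between letters in polysomes was larger than the difference between fractions.

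**Figure D4:**
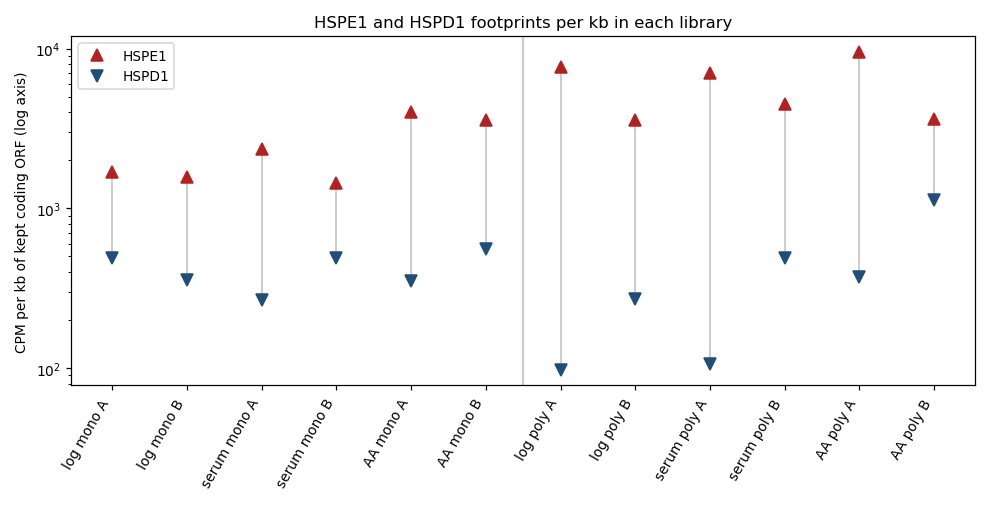
CPM of coding footprints per kb of kept ORF (log axis) for HSPE1 (upward triangles) and HSPD1 (downward triangles) in the 12 libraries, with a grey line joining the 2 genes of a library. HSPE1 lies above HSPD1 in every library, and the gap is largest in log phase polysome library A.

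A large part of the HSPE1 footprints lay in its last codons. The caller also listed an ORF of 24 nt that ends at the HSPE1 stop codon, chr2:197503236-197503259, which is 7.77% of the coding length. It held 40.6% of HSPE1 footprints over all libraries. The share was 56.0% ± 7.14 (SD, n = 6) in monosomes, from 47.4% to 69.0%, and 41.4% ± 3.00 (SD, n = 6) in polysomes, from 38.3% to 45.7%. The fractions did not overlap, and the exact two-sided permutation within conditions gave p = 0.00926 (adjusted over 3 measures 0.0278), the smallest p it allows. Swapping fractions within condition and letter gave an exact p = 0.0312, also the smallest allowed. The measure was chosen after its values were seen, so both p-values describe a split already observed, and the adjustment does not correct for that choice.

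In HSP90AA1 a listed ORF of 18 nt at the stop codon, 0.856% of the main ORF, held 16.4% of its footprints. Its share was 18.3% ± 6.09 (SD, n = 6) in monosomes and 19.5% ± 7.43 (SD, n = 6) in polysomes, with an exact two-sided permutation p = 0.759 (adjusted over 3 measures 0.759). These 3 measures were chosen after their values were seen. Subtracting the footprints of the last codons left the counts of called chaperone genes in amino acid starvation and in monosomes over polysomes as they were, with and without the block.

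**Figure D5:**
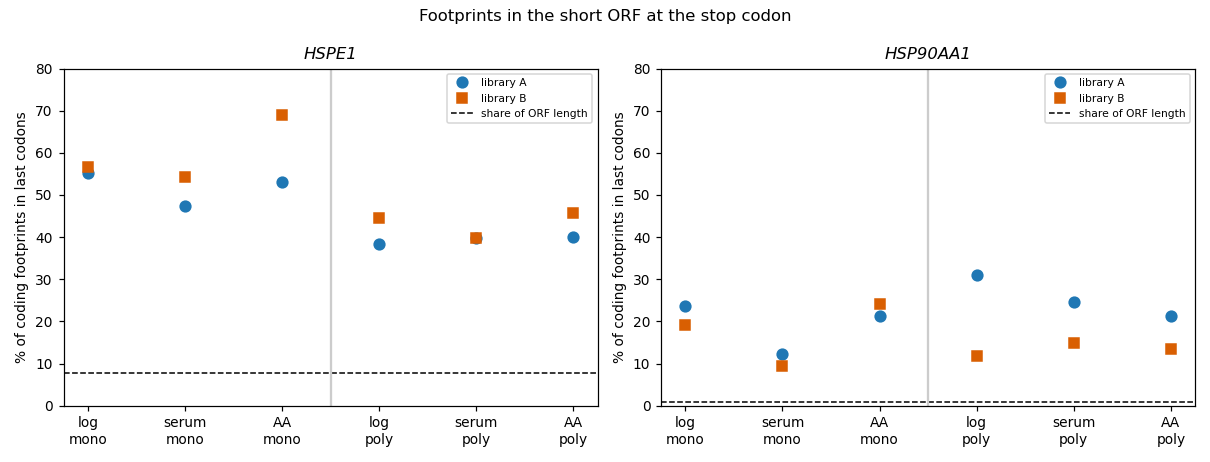
Percent of the coding footprints of HSPE1 (left) and HSP90AA1 (right) that fell in the short listed ORF at the stop codon, by library, with a dashed line at that ORF's share of the coding length. All HSPE1 monosome points lie above all its polysome points, and the HSP90AA1 points of the fractions overlap.

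In the other comparisons between conditions none of the 10 genes passed the edgeR test, with or without the block. Serum starvation over log phase in polysomes gave changes from -0.42 to 0.64 with the block, and 0.0% of all genes passed in either fit; 49 genes with the block and 5 without it had an unadjusted p under 0.05, and DESeq2 called 0. In monosomes serum starvation gave -0.38 to 0.63, with 0.0205% of all genes called with the block and 0.0% without it. None of the 10 genes had an unadjusted p under 0.05 in either serum comparison, in either fit.

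Amino acid over serum starvation in polysomes gave estimates above 0 for 9 of the 10 genes, from -0.18 to 1.34 with the block. With the block 7 had an unadjusted p under 0.05, as did 875 of all 4877 genes, and the smallest adjusted p was 0.0907 for DNAJA1. Without it 0 of the 10 had an unadjusted p under 0.05. Of all genes 0.964% passed with the block and 0.0% without it. With the block, the number of chaperone genes called changed when serum-starved polysome library B was left out, which leaves a lone library in that group. The share of all genes called in that fit is not given here. This comparison shares the amino acid-starved libraries with the one against log phase.

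In monosomes amino acid starvation over log phase gave -0.46 to 1.25 with the block, and HSPE1 was highest with 1.25 and an adjusted p of 0.251. The libraries did not overlap for 5 genes (HSPE1, HSP90AA1, HSP90AB1, HSPH1 and DNAJA1), whose starved levels were above those of log phase, and the same held for 21.0% of all genes tested. None of the 10 passed the test, and of all genes 0.943% did with the block and 0.0% without it. The estimated difference in the monosome over polysome log2 ratio, amino acid starvation minus log phase, ran from -1.75 (HSPD1) to 1.40 (HSPE1) with the block. Of the estimates 9 were below 0 and that of HSPE1 was above it. The ratio difference contains the polysome change from log phase given above, so these signs are not a separate result. With the block 4 of the 10 genes and 646 of all genes had an unadjusted p under 0.05, and the smallest adjusted p was 0.222. Of all genes 1.17% passed with the block and 0.0% without it, and the corresponding change under serum starvation had 0.0205% and 0.0%, with 0 of the 10 genes called in either fit.

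Related chaperones were read from 3 lists, which were also chosen with earlier results of these data known. Of 15 other HSP70, HSP110, HSP90 and mitochondrial chaperones 8 were tested, and with the block 3 rose in amino acid-starved polysomes and 0 fell, with a median of 1.09 against -0.07 for all genes, of which 5.21% rose. HSPA1A (1.29, adjusted p = 0.0298) and HSPA1B (1.22, adjusted p = 0.0389) are stress-inducible HSP70 genes with near-identical sequences, so their footprints cannot be assigned to one or the other with certainty. CLPX, the unfoldase of a mitochondrial protease, rose by 1.43 (adjusted p = 0.0489), and TRAP1, the mitochondrial HSP90, was at 1.23 (adjusted p = 0.0585). In polysomes HSPA1A was at 45.73 and 203.5 CPM in log phase and at 139.2 and 584.7 CPM after amino acid starvation, so the groups overlapped. Monosomes over polysomes was 1.59 for HSPA1B (adjusted p = 1.11e-06) and 1.55 for HSPA1A (adjusted p = 1.56e-06) with the block, and 5 of the 8 were higher and 2 lower, against 23.8% and 30.1% of all genes.

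Of 44 other J proteins and nucleotide exchange factors 22 were tested. With the block 2 rose and 1 fell in amino acid-starved polysomes, with a median of 0.09, which is close to the 9.97% of all genes called. DNAJA2, a close relative of DNAJA1, rose by 1.27 (adjusted p = 0.0202), and DNAJC7, which binds HSP70 and HSP90, rose by 1.38 (adjusted p = 0.0268). DNAJC24, a J protein of the diphthamide pathway, fell by 1.48 (adjusted p = 0.0140), and DNAJC8 was at 1.23 (adjusted p = 0.0631). In monosomes over polysomes 2 were higher and 9 lower with the block, while 54.0% of all genes were called, so the total is no larger than the background. BAG1, a nucleotide exchange factor of HSP70, was at 2.50 (adjusted p = 6.78e-09), and DNAJC5, the synaptic vesicle J protein, at -2.31 (adjusted p = 8.26e-08).

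Of 28 co-chaperones and regulators 19 were tested, and with the block 2 rose in amino acid-starved polysomes and 0 fell, with a median of 0.22, while 9.97% of all genes were called. STIP1 (HOP), which links HSP70 to HSP90, rose by 1.63 (adjusted p = 0.00791), from 84.50 and 229.0 CPM in log phase to 376.9 and 755.9 CPM. CHORDC1, an HSP90 co-chaperone, rose by 1.54 (adjusted p = 0.0202). BTF3, a subunit of the nascent chain-associated complex, was at -1.38 (adjusted p = 0.0725), and PPP5C, an HSP90-bound phosphatase, at 0.94 (adjusted p = 0.100). In monosomes over polysomes 2 were higher and 11 lower with the block, against 23.8% and 30.1% of all genes. AHSA1, the activator of HSP90 ATPase, was at -2.21 (adjusted p = 2.02e-08) and the immunophilin FKBP4 at -1.71 (adjusted p = 4.07e-06). Without the block no gene of the 3 lists passed in amino acid starvation, where 0.0% of all genes did.

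Across the 12 libraries HSP90AA1 followed the mean of the other 9 chaperone genes most closely (Pearson r = 0.987 on log2 CPM). The r was 0.934 for HSPD1, 0.895 for HSP90AB1 and 0.582 for HSPA8, and it was -0.218 for DNAJB1 and -0.526 for HSPE1. Of 3417 other genes with a mean of at least 50 footprints per library, those most like the mean of the 10 were SF3A3 (0.984), ATIC (0.977), XRCC5 (0.959), PPHLN1 (0.945) and NASP (0.944). These r describe 12 libraries that share fraction, letter and depth.

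The chaperone loci also held 264 kept ORFs of other types, such as upstream, internal, downstream and noncoding-transcript ORFs, and none had a caller p-value under 1e-04 in the deposited table. The share of such ORFs under that limit over all genes was not counted, so this is not read as particular to these loci. The limit is also no clean divide from the coding ORFs, since the kept HSP90AB1 ORF had a caller p-value of 1.0 and the second HSP90AA1 ORF 0.599. Coding ORFs took 53.3% (DNAJB1) to 85.1% (HSPD1) of all footprints at a locus. The remainder is not all from outside the coding regions, since the types are the caller's. An HSP90AA1 ORF typed as downstream, chr14:102084713-102084949 with 1218.1 footprints, lay within the span of the main HSP90AA1 ORF. At HSPH1 and DNAJB1 the kept ORF is a fragment, so other types there can cover the rest of the coding region. This coding share was lower in monosomes than in polysomes at all 10 loci, for example 59.6% against 74.8% at HSPA8 and 81.1% against 81.3% at HSPE1. Over all genes coding ORFs took 23.0% to 47.4% of footprints in the monosome libraries and 56.9% to 69.2% in the polysome libraries. For the 10 genes 9 upstream or overlapping upstream ORFs were kept, and their number over all genes was not counted.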

How the data were processed

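The authors deposited 1 table of ORFs from the PRICE caller with the caller's p-value per ORF. Per the file headers it gives an expected count of footprints per ORF and library, not normalized and not whole. The submitters' processing notes name Bowtie 1.0 and hg38. Of 149028 ORFs 124829 were kept so that each codon counted once (coding types first, then higher totals), 7031 of them coding. Gene IDs were named by position in RefSeq, and merged IDs such as that of HSPE1 were split by ORF position. Counts were summed per gene and rounded.

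All 12 libraries entered 1 edgeR 4.0.16 quasi-likelihood fit (R 4.3.3, TMM, filterByExpr, 4877 genes, two-sided, Benjamini-Hochberg over all genes, threshold 0.05). A run on simulated data is given without a result here, so it does not show that the fit suits these libraries. All 10 chaperone genes passed the filter. The SE is the log2 change divided by the root of F. B minus A deviations correlated at 0.768 to 0.866 between polysome groups and at 0.161 to 0.424 in pairs with a monosome group. The column letters were taken as pairing the libraries, with 1 letter effect per gene for all groups. The fit with them as a replicate block is given beside the main one, and the weaker pairing of monosomes limits it. Alternatives were RLE and library-size scaling, DESeq2 1.42.0, other filters, CDS-type ORFs alone and leaving out each library. Every chaperone gene is named; listed genes by smallest adjusted p. Members and lists were chosen with earlier results of these data known.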

Additional observations from a re-analysis of the deposited data

How the results depend on the processing

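Each setting was changed in turn, and no called value changed sign. Adding the block turned the sign of 4 of 80 estimates, none of them called: HSPA4 in monosomes over polysomes and in serum-starved monosomes, HSPD1 in amino acid-starved monosomes and HSPE1 in serum-starved polysomes, all within 0.153 of 0. For monosomes over polysomes 2 of the 10 genes passed without the block. The replicate block gave 7, also without the last codons (chosen after seeing the data), 5 with RLE scaling or DESeq2 added and 6 with library sizes. CDS-type ORFs alone, which leave HSPE1 as the only gene, gave 1 in either fit. Leaving out single libraries gave 1 to 4 without the block and 4 to 7 with it. For amino acid starvation over log phase in polysomes 0 passed without the block and 2 by DESeq2. With the replicate block 5 passed, also without the last codons, 6 with RLE scaling or DESeq2, 8 with library sizes and 0 with CDS-type ORFs, and leaving out single libraries gave 0 to 7. For amino acid over serum starvation the block with DESeq2 gave 2 and called 186 of all 4877 genes, and leaving out single libraries moved the count. For amino acid starvation in monosomes the block with DESeq2 gave 1 and called 181 of all 4877 genes. For the ratio change in amino acid starvation single omissions moved the count. The genes' median share of coding footprints over the libraries, 0.459%, was 0.491% for HSPE1 alone among CDS-type ORFs.

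The block changed no other count of called chaperone genes. Scaling moved the share of higher calls: monosomes over polysomes without the block went from 43.8% higher to 52.4% with RLE, whose median shift was 0.141, and amino acid starvation in polysomes with the block from 52.3% to 76.9% with library sizes. For the single genes called with the block, 147 alternatives kept the call and 45 lost it. Depth limits DNAJB1 and HSPH1 in monosomes most. With 2 libraries a group and lone libraries assumed to vary like the other groups, a missed threshold does not show that levels were equal.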

Other observations

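Within HSPA8 one internal out-of-frame ORF stood apart, and it was singled out after its values were seen. It has 84 nt in 2 exons at chr11:123058476-123058706 and a caller p-value of 0.479 in the deposited table. Its level was 67.1 to 470.0 CPM of coding footprints in the 6 monosome libraries and 3.16 to 23.1 in the 6 polysome libraries, from 308.7 and 234.5 footprints in all. Relative to the HSPA8 coding ORF it held 12.8% to 39.6% in monosomes and 2.50% to 6.90% in polysomes. These are values with no test, and what the footprints are was not tested.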
